A study of Mus musculus with 9 samples.

Results

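The genes described here are 7 receptors through which blood cell growth factors act (Csf1r, Csf2ra, Csf2rb, Csf2rb2, Csf3r, Flt3 and Kit) and 2 antigens by which mouse macrophages are recognized, Emr1 (now Adgre1, the F4/80 antigen) and Lyz2 (the lysozyme of myeloid cells). They were chosen by symbol, and all 9 were found among the 24607 genes of the deposited table. Of the 9, 8 reached the level required for testing, as did 16328 genes in all; Flt3 did not.

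RNA was sequenced from bone marrow-derived macrophages of mice with the genotype CX3CR1-gfp/+, a genotype that every group shares and in which green fluorescent protein is placed at the locus of the fractalkine receptor. The groups were macrophages kept together with neurons from dorsal root ganglia (DRG, the sensory ganglia beside the spinal cord; called co-culture), macrophages given 0.02 ng/ml transforming growth factor beta (TGF-β) and macrophages in monoculture, with 3 libraries each, called replicates 1 to 3. All had been differentiated from marrow in 50 ng/ml M-CSF (macrophage colony-stimulating factor) and were sorted by CD11b and CD64 before RNA extraction. The label time of 5 days is given by one note for the stage before treatment and by another for the co-culture itself. Cells came from 3 mice, but it is not stated if these were shared among the groups, so the p-values measure the spread between these libraries, which may be technical. The labels used here give no sex or age of the mice.

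Colony-stimulating factors are the hormones of blood cell formation. M-CSF binds the receptor tyrosine kinase encoded by Csf1r, on which macrophage survival depends, and Kit and Flt3 belong to the same kinase family but mark stem, progenitor, mast and dendritic cells. Granulocyte-macrophage colony-stimulating factor (GM-CSF) and interleukin 3 act through a different design, in which a ligand-specific alpha chain (Csf2ra, Il3ra) pairs with a shared signaling beta chain (Csf2rb); mice carry an additional beta chain, Csf2rb2, that serves interleukin 3. Csf3r, the receptor of granulocyte colony-stimulating factor, is best known from neutrophils.

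Levels are normalized counts, that is gene reads divided by 1 scaling factor per library. Depth ranged from 46.8 to 308.8 M reads, so that 1 read was worth 0.346 to 2.27 normalized counts. Macrophage antigens were abundant in every library. The sort antigens had means of 104083 normalized counts for Itgam (CD11b) and 11349.5 for Fcgr1 (CD64) in co-culture, 89084 and 9218 with TGF-β, and 113361 and 10969 in monoculture. Markers of other cells were also read in co-culture. Fibroblast markers numbered 11 in the table, of which 10 were tested and called higher in co-culture. Of all tested genes 15.9% were called higher in co-culture against monoculture. Of the 10 fibroblast markers, 7 reached the level for testing only through the co-culture libraries, so that the direction of these 7 was fixed by the filter. The summed level of the 11 ranged from 7012 to 9909 over co-culture libraries, from 22.6 to 126.7 over TGF-β libraries and from 38.0 to 121.8 over monoculture libraries, with Lum and Thy1 at 0 reads in all of monoculture. Of the glial markers, Ngfr had 209.4 to 261.2 normalized counts in co-culture and 0 reads in all TGF-β and monoculture libraries, and Sox10 had 100.8 to 217.3 in co-culture and at most 0.775 elsewhere. The fibroblast sum, Ngfr and Sox10 were higher in every co-culture library than in any other. Every co-culture difference given below compares this same group, without a match between single libraries being meant. The part of fibroblasts and glia in these differences was not tested. Fewer cells of a type and less RNA per cell cannot be told apart in such bulk samples.

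In co-culture against monoculture 6 of the 8 tested genes changed: Csf2rb, Csf3r and Lyz2 rose, and Csf2ra, Kit and Emr1 fell. Over all tested genes 30.8% changed in that comparison, 15.9% upward and 15% downward (adjusted p under 0.05, limma with Benjamini-Hochberg adjustment over 16328 genes, used throughout). The M-CSF receptor gene Csf1r and the interleukin 3 beta chain gene Csf2rb2 did not pass the test. With TGF-β alone none of the 8 passed the limma test against monoculture, with 2.52% of all genes called. At an unadjusted p under 0.05 there were 7 of the 8 with limma and 6 with edgeR, against 15% and 14.8% of all genes; after adjustment edgeR also called 0 (2.39% of all genes called) and DESeq2 called 3 (Lyz2, Csf2rb and Emr1, with 6.58% of all genes called). Co-culture against TGF-β gave 4 of 8, with 25.3% of all genes called (13.4% higher, 11.9% lower): Csf2rb and Csf3r were higher, and Csf2ra and Kit lower. Kit reached the level for testing only through monoculture and TGF-β libraries, so the filter fixed the direction of its calls in co-culture.

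**Figure D1:**
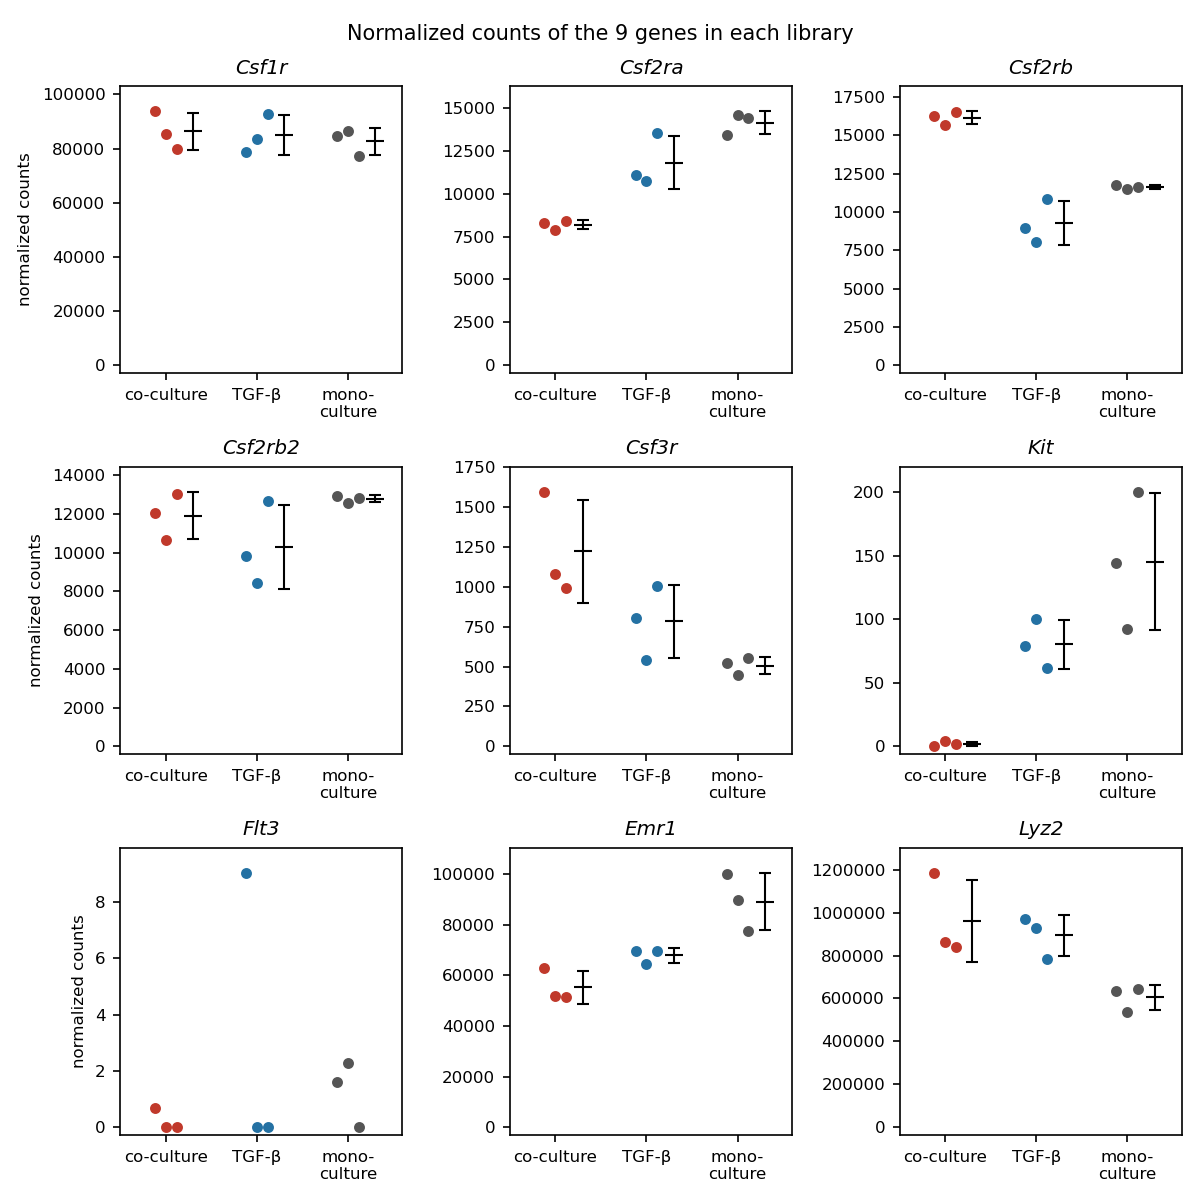
Normalized counts (vertical axes, linear, each gene on its own scale) of the 9 genes in each library of the co-culture, TGF-β and monoculture groups. Points are libraries in replicate order and black bars the mean ± SD of 3, left out for Flt3; Kit stands near 0 in co-culture, whereas the 3 groups of Csf1r overlap.

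**Figure D2:**
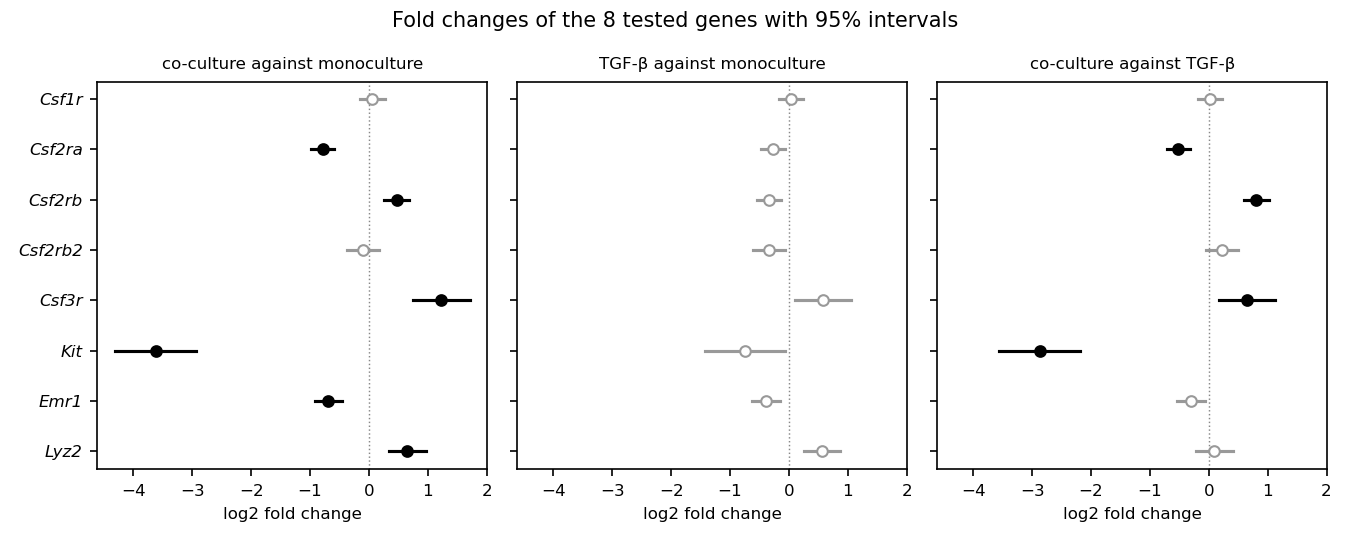
Log2 fold changes (horizontal axes) of the 8 tested genes (rows) in the 3 comparisons, with 95% intervals from limma as bars; filled black points passed at adjusted p under 0.05. In co-culture against monoculture 6 points are filled, with TGF-β against monoculture 0, and in co-culture against TGF-β 4. The direction of Kit in co-culture was fixed by the filter.

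Csf1r, the receptor for the M-CSF in which all cultures were grown, had nearly level values. It had 93742, 85297 and 79935 normalized counts in co-culture replicates 1 to 3, 78577, 83592 and 92945 with TGF-β, and 84619, 86449.6 and 77169.6 in monoculture. The 3 groups overlapped, and each group spanned much of the whole range. The log2 fold change was 0.06 ± 0.10 (estimate ± SE, adjusted p = 0.696) in co-culture against monoculture, with a 95% interval of -0.15 to 0.27, that is 0.902 to 1.20 times the monoculture level. With TGF-β against monoculture it was 0.04 ± 0.10 (adjusted p = 0.917, interval -0.17 to 0.25), and in co-culture against TGF-β 0.02 ± 0.10 (adjusted p = 0.902, interval -0.19 to 0.23).

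The ligand gene Csf1, which encodes M-CSF itself, rose in co-culture while its receptor gene did not pass the test. Csf1 had 651, 788.4 and 641.2 normalized counts in co-culture, against 186.7, 321.2 and 186 in monoculture, without overlap (log2 fold change 1.58 ± 0.22, adjusted p = 6.87e-05). With TGF-β it had 207.4, 310.3 and 245.4 (0.16 ± 0.22 against monoculture, adjusted p = 0.816), and co-culture was higher than TGF-β by 1.42 ± 0.22 (adjusted p = 2.54e-04). Fibroblasts also make M-CSF, and the fibroblast sums given above were highest in the same 3 libraries; their part in the Csf1 difference was not tested. Il34, the other ligand of this receptor, had 0.346, 1.56 and 14.6 normalized counts in co-culture, 0, 2.19 and 0 with TGF-β, and 0 reads in all 3 monoculture libraries, too few to test.

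The alpha and beta chains of the GM-CSF receptor moved in opposite directions in co-culture. Csf2ra, the chain that recognizes GM-CSF, had 8296, 7902 and 8379 normalized counts in co-culture and 13384, 14597 and 14406 in monoculture. Every co-culture library lay below every monoculture library, and Csf2ra fell by 0.79 ± 0.09 on the log2 scale (adjusted p = 1.33e-05). Csf2rb, the shared signaling chain, had 16268, 15689.8 and 16497 in co-culture and 11748, 11503 and 11643 in monoculture. All 3 co-culture libraries were higher, and Csf2rb rose by 0.47 ± 0.10 (adjusted p = 0.00177).

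With TGF-β neither chain passed the test against monoculture. Csf2ra had 11109, 10705 and 13546 normalized counts with TGF-β, overlapping monoculture (log2 fold change -0.27 ± 0.09, adjusted p = 0.165). Csf2rb had 8960 (replicate 1), 8055 and 10883 with TGF-β, all below monoculture, which gave -0.33 ± 0.10 (adjusted p = 0.0970). Its co-culture values thus lay above and its TGF-β values below those of monoculture. In co-culture against TGF-β Csf2rb was higher by 0.81 ± 0.10 (adjusted p = 2.65e-05) and Csf2ra lower, with a log2 fold change of -0.52 ± 0.09 (adjusted p = 7.80e-04). TGF-β replicate 3 stood above the other TGF-β libraries for Csf2ra, Csf2rb and Csf2rb2 alike. Without it 4 genes differed with TGF-β against monoculture: Csf2ra, Csf2rb and Csf2rb2 fell and Lyz2 rose (the numbers of calls without each library are given in the closing section).

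Csf2rb2, the beta chain of the mouse interleukin 3 receptor, did not rise with its neighbor Csf2rb. It had 12060.0, 10633 and 13029.6 normalized counts in co-culture, 9829 with TGF-β in replicate 1, 8419.6 in replicate 2 and 12678 in replicate 3, and 12929.6, 12571 and 12834 in monoculture. The groups overlapped (co-culture against monoculture -0.11 ± 0.13, adjusted p = 0.575, interval -0.38 to 0.16; TGF-β against monoculture -0.33 ± 0.13, adjusted p = 0.219; co-culture against TGF-β 0.22 ± 0.13, adjusted p = 0.227). These genes lie 20030 bases apart on chromosome 15 on opposite strands. Their transcripts are alike in part: of the 50-base stretches of Csf2rb transcripts 12.3% also occur in Csf2rb2, and 18.4% the other way. How reads from such stretches were assigned is not stated, so the split between the 2 genes is uncertain.

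Csf2rb2 took 42.6%, 40.4% and 44.1% of the reads of the 2 beta chain genes in co-culture, 52.3%, 51.1% and 53.8% with TGF-β, and 52.4%, 52.2% and 52.4% in monoculture. The share was lower in every co-culture library than in any other, with differences of mean of -9.98 percentage points against monoculture and -10.04 against TGF-β (exact permutation test, two-sided, p = 0.1 for each, the smallest p that 3 against 3 libraries can give). TGF-β differed from monoculture by 0.0621 percentage points (exact p = 0.9).

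Within a library, the ratio between the chains varied little among co-culture replicates. The ratio of Csf2ra to Csf2rb counts was 0.510, 0.504 and 0.508 in co-culture, 1.24, 1.33 and 1.24 with TGF-β, and 1.14, 1.27 and 1.24 in monoculture. Every co-culture library lay below all others in this ratio, while the TGF-β and monoculture libraries overlapped. Il3ra, the alpha chain that recognizes interleukin 3, fell in co-culture as Csf2ra did. It had 1057, 931.4 and 893 normalized counts in co-culture, 1816, 1884 and 2304 with TGF-β, and 2018, 1743 and 1849.6 in monoculture. The co-culture libraries were lowest (-0.96 ± 0.12 against monoculture, adjusted p = 1.77e-05; -1.05 ± 0.12 against TGF-β, adjusted p = 1.16e-05), and TGF-β against monoculture gave 0.09 ± 0.12 (adjusted p = 0.791). Both alpha chains thus fell where the shared beta chain rose. The ligand gene Csf2 had at most 3 reads in any library, and Il3, Il5, Csf3 and Il5ra have no value in the table.

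**Figure D3:**
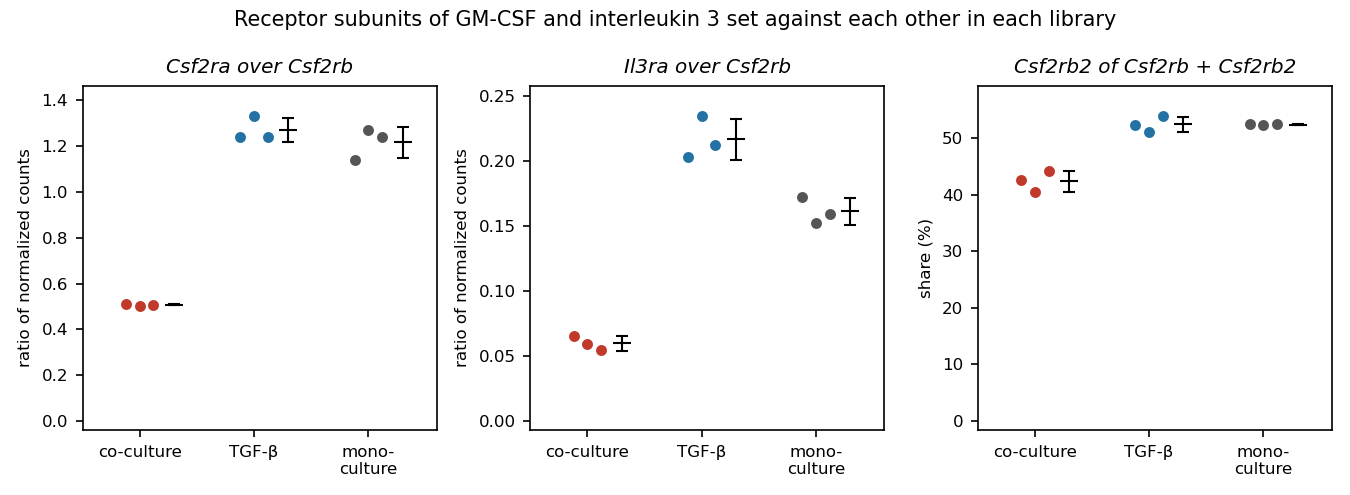
Ratio of Csf2ra to Csf2rb and of Il3ra to Csf2rb normalized counts, and the share (%) of Csf2rb2 in the summed counts of Csf2rb and Csf2rb2, by library in the co-culture, TGF-β and monoculture groups. Points are libraries and bars the mean ± SD of 3; the co-culture libraries lie below all others in each panel, with Csf2ra to Csf2rb at 0.504 to 0.510.

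Signaling genes that GM-CSF and interleukin 3 receptors share were taken as a list of 11 with the Janus kinase Jak2, the STAT5 factors and their targets. In co-culture against monoculture 4 rose and 1 fell (median log2 fold change -0.03, against 0.03 for all tested genes, of which 15.9% rose and 15% fell). Socs2, a feedback inhibitor induced by STAT5, rose to 314.2 ± 55.8 normalized counts in co-culture, against 28.6 ± 19.3 in monoculture (mean ± SD, n = 3 each; log2 fold change 3.18 ± 0.34, adjusted p = 5.60e-06). The related feedback gene Cish rose by 1.27 ± 0.38 (adjusted p = 0.0209), which was lost without any of co-culture 1 or 2 or monoculture 2 or 3 (adjusted p = 0.0688 to 0.0939). Jak2 rose by 0.35 ± 0.10 (adjusted p = 0.0162; 0.0511 without monoculture 2, 0.0690 without co-culture 1 and 0.0527 without co-culture 3), and Bcl2l1, the survival gene of BCL-XL, fell by 0.45 ± 0.11 (adjusted p = 0.00517). With TGF-β against monoculture limma, edgeR and DESeq2 each called 0 of the 11, where limma called 2.52% of all tested genes. At an unadjusted p under 0.05 there were 0 with limma and 1 with edgeR. In co-culture against TGF-β 2 were higher, Socs2 (2.75 ± 0.34) and Jak2 (0.55 ± 0.10), with 13.4% of all tested genes higher.

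Csf3r, the receptor of granulocyte colony-stimulating factor, rose in co-culture. It had 1591, 1082 and 990.0 normalized counts in co-culture, 803.4, 544.1 and 1002 with TGF-β, and 522.8, 444.3 and 553.3 in monoculture. Co-culture libraries were all above monoculture, by 1.23 ± 0.22 on the log2 scale (adjusted p = 8.57e-04), that is 2.34-fold with an interval of 1.68 to 3.27. TGF-β libraries lay between and overlapped both (0.58 ± 0.22 against monoculture, adjusted p = 0.223). In co-culture against TGF-β the difference of 0.65 ± 0.22 was at the edge of the threshold (adjusted p = 0.0488), and 14 of 18 alternative settings gave an adjusted p above 0.05. Without co-culture replicate 1, the highest library, it was 0.44 (adjusted p = 0.197), and without TGF-β replicate 2, the lowest of its group, 0.41 (adjusted p = 0.177).

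Neutrophils, which also carry this receptor, were looked for through 11 markers, of which 9 were in the table, with a summed level of 1035 to 1398 in co-culture, 1132 to 1649.8 over TGF-β libraries and 1264 to 1734 over those of monoculture. The protease gene Mmp8 made up 985 to 1341 of that sum in co-culture. Of the other 8, S100a8 had 44.5 to 47.8 in co-culture, 13.6 to 29.3 over TGF-β libraries and 21.9 to 47.1 over those of monoculture. Ltf had 1.73, 15.6 and 2.66 in co-culture, 0, 10.9 and 0 with TGF-β, and 0 reads in monoculture, and the remaining 6 had at most 16.4 in any library. Between the groups limma, edgeR and DESeq2 called 0 of the 2 tested markers in each comparison, with at most 1 at an unadjusted p under 0.05. The part of neutrophils in the Csf3r difference was not tested.

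Kit, the receptor of stem cell factor and a marker of mast cells and progenitors, was low in all groups and lowest in co-culture. It had 0.693, 3.91 and 1.99 normalized counts in co-culture, from 2, 5 and 3 reads. With TGF-β it had 78.9, 100.5 and 61.4, and in monoculture 144.5, 92.1 and 199.9. All co-culture libraries lay below all others, and TGF-β and monoculture overlapped. Kit fell by 3.62 ± 0.32 on the log2(value + 10) scale in co-culture against monoculture (adjusted p = 8.28e-07) and by 2.87 ± 0.32 against TGF-β (adjusted p = 1.25e-05). The added 10 shrinks these folds, since the ratio of group means was 66.2 for monoculture over co-culture and 36.5 for TGF-β over co-culture. From pooled reads alone the monoculture level was 87.3 times that of co-culture, with a 95% interval of 47.0 to 183 for counting error. TGF-β against monoculture gave -0.75 ± 0.32 (adjusted p = 0.283). Kit entered the test only through its monoculture and TGF-β levels, since no co-culture library reached 10. The direction of its calls in co-culture was thus fixed by the filter.

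Kitl, which encodes stem cell factor, the ligand of Kit, fell in the same libraries. It had 1064, 1014 and 1309.6 normalized counts in co-culture, 5649, 6208 and 5438 with TGF-β, and 7581, 7964 and 7522.5 in monoculture. The 3 groups did not overlap, with TGF-β between the others. Kitl fell in co-culture, with a log2 fold change of -2.77 ± 0.10 against monoculture (adjusted p = 1.88e-10) and -2.35 ± 0.10 against TGF-β (adjusted p = 2.11e-09). With TGF-β against monoculture it fell by 0.42 ± 0.10 (adjusted p = 0.0441), a call lost under several other settings, among them no filter (adjusted p = 0.0863), the replicate block (0.0654) and leaving out any library other than co-culture 2 or 3 (0.0542 to 0.180). The receptor gene and its ligand gene were thus both lower in co-culture, whereas for M-CSF the ligand gene was higher and the receptor gene did not pass the test.

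**Figure D4:**
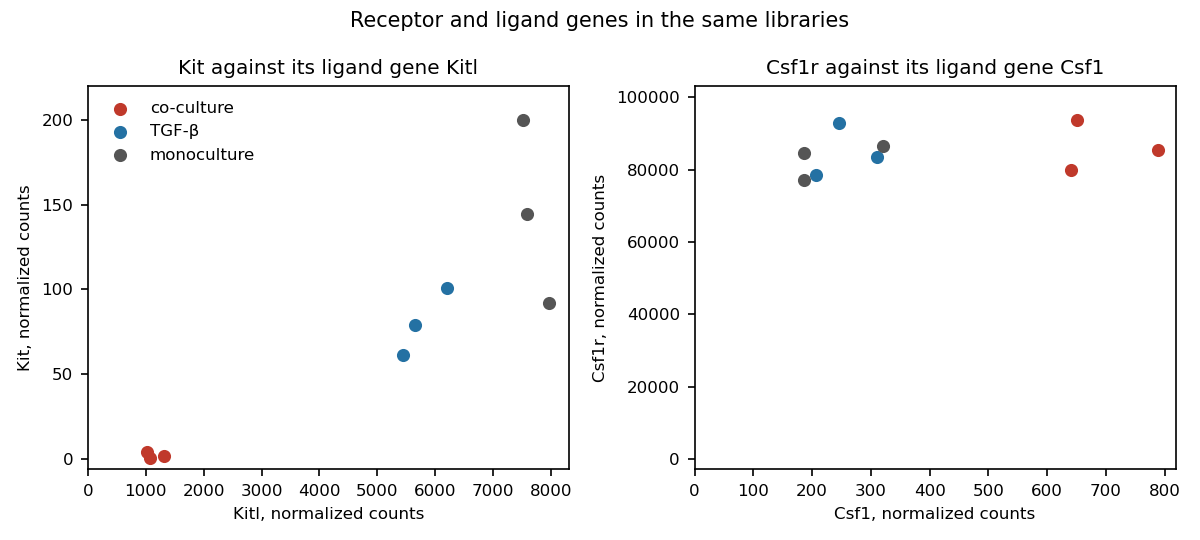
Normalized counts of Kit against its ligand gene Kitl, and of Csf1r against its ligand gene Csf1, with 1 point per library (co-culture, TGF-β and monoculture by color). Co-culture libraries sit at the low end of both axes of the Kit panel; in the Csf1r panel they lie to the right, at 641.2 to 788.4 for Csf1, at Csf1r values that overlap the other groups.

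Cells that carry much Kit were sought through 10 markers of mast cells and progenitors, of which 4 were in the table. Their sum was 78.3 to 105 in co-culture, 15.0 to 67.7 over TGF-β libraries and 23.3 to 67.9 over those of monoculture. The mast cell protease gene Mcpt4 was at 0 reads in 8 libraries and had 4.65 normalized counts in co-culture 3. Of the 2 tested markers, the stem cell antigen Cd34 rose (log2 fold change 1.93, adjusted p = 0.00136) and the progenitor factor Gata2 fell (-1.31, adjusted p = 0.0394) in co-culture against monoculture. Gata2 had 9.74, 44.89 and 10.85 normalized counts in monoculture, 0, 15.3 and 4.5 with TGF-β, and 0.35, 0.78 and 3.32 in co-culture. It was tested only through monoculture and TGF-β libraries, so the filter fixed the direction of its call. The part of such cells in the Kit difference was not tested.

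Flt3, the receptor that drives dendritic cell development, was at or near 0 reads. It had 0.693, 0 and 0 normalized counts in co-culture (2 reads in all), 9.02, 0 and 0 with TGF-β (12 reads, all in replicate 1) and 1.62, 2.30 and 0 in monoculture (3 reads). No library reached 10, no test was made, and no difference was detectable at this depth. Of 8 dendritic cell markers 6 were in the table, with sums of 63.3 to 75.1 in co-culture, 31.8 to 54.9 over TGF-β libraries and 34.1 to 59.7 over those of monoculture, and 0 of 2 tested were called by limma, edgeR or DESeq2 or had an unadjusted p under 0.05 in any comparison. The ligand gene Flt3l had a mean of 109.3 in co-culture, 157.0 with TGF-β and 187.3 in monoculture and did not pass the limma test in any comparison. In co-culture against monoculture, where its adjusted p was 0.0880 (log2 fold change -0.68 ± 0.28), it was called lower by DESeq2 (adjusted p = 0.0375), with the replicate block (0.0446) and without monoculture 2 (0.00976).

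Relatives of Csf1r and Kit in the same kinase family, the platelet-derived growth factor receptors of fibroblasts and mural cells, were read mainly in co-culture. Pdgfrb had 88.0, 168.0 and 149.5 normalized counts in co-culture, 0, 2.19 and 4.54 with TGF-β, and 6.50, 1.15 and 8.52 in monoculture. Pdgfrb was tested only because it reached 10 in the co-culture libraries, so the direction of its call (log2 fold change 3.23 ± 0.34 against monoculture, adjusted p = 4.98e-06) was fixed by the filter. Pdgfra had 2.77, 12.5 and 31.9 in co-culture and 0 reads in all monoculture libraries and was not tested. These levels stand beside the fibroblast sums of the same libraries, and their source was not tested.

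Emr1 encodes F4/80, an adhesion-type receptor that is the classical surface antigen of mouse macrophages. It had 62747, 51705 and 51235 normalized counts in co-culture, 69437, 64385 and 69566 with TGF-β, and 99767, 89814 and 77584 in monoculture. The 3 groups did not overlap: co-culture was lowest, monoculture highest and TGF-β between them. Emr1 fell by 0.69 ± 0.11 in co-culture against monoculture (adjusted p = 2.26e-04), to 0.621 times the monoculture level. The steps to and from TGF-β did not pass with limma, at -0.39 ± 0.11 for TGF-β against monoculture (adjusted p = 0.0880) and -0.30 ± 0.11 for co-culture against TGF-β (adjusted p = 0.0608). DESeq2 called both (adjusted p = 0.0145 and 0.0363). The first was also called without monoculture 3 (0.0477), and the second in 6 of 18 alternative settings, among them the replicate block (0.0469) and leaving out co-culture 1, monoculture 1 or monoculture 3 (0.0327 to 0.0479). The ratio of Csf1r to Emr1 counts was 1.57 ± 0.08 in co-culture, 1.26 ± 0.11 with TGF-β and 0.935 ± 0.077 in monoculture (mean ± SD, n = 3 each), without overlap between any 2 groups.

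Lyz2, the lysozyme gene whose promoter is widely used to drive Cre in myeloid cells, was among the most abundant transcripts, at rank 5 to 7 of all genes in co-culture libraries, 7 with TGF-β and 8 to 10 in monoculture. It had 1182103, 863243 and 840007 normalized counts in co-culture, 968059.6, 928117 and 784996 with TGF-β, and 634628, 537016 and 643391 in monoculture. Co-culture and TGF-β libraries overlapped, and all of them lay above all of monoculture. Lyz2 rose by 0.66 ± 0.15 in co-culture (adjusted p = 0.00303). With TGF-β the value was 0.56 ± 0.15 (adjusted p = 0.0607), and co-culture against TGF-β gave 0.09 ± 0.15 (adjusted p = 0.701, interval -0.22 to 0.41). The TGF-β value passed without TGF-β 3, co-culture 1 or co-culture 3, with only the 6 libraries compared, and with DESeq2. In co-culture 0.761 to 1.10% of all reads came from Lyz2, with TGF-β 0.738 to 0.850%, and in monoculture 0.508 to 0.612%.

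Near relatives of the antigens did not pass the test. Lyz1, the Paneth cell lysozyme 5475 bases from Lyz2 on chromosome 10, had a mean of 123.5 normalized counts in co-culture, 136.4 with TGF-β and 91.9 in monoculture, and 16.1% of its 50-base stretches also occur in Lyz2, so that its reads may in part be those of Lyz2. Emr4, the F4/80-like gene now called Adgre4, had a mean of 27.3 in co-culture, 40.6 with TGF-β and 17.2 in monoculture. Cd97 (now Adgre5), a related adhesion receptor of leukocytes, had a mean of 2473 in co-culture, 3135 with TGF-β and 3020.3 in monoculture. Of these 3 limma, edgeR and DESeq2 called 0 in each comparison; at an unadjusted p under 0.05 there was 0 in co-culture against monoculture and 1 in each of the other comparisons.

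TGF-β means lay between those of co-culture and monoculture for Csf2ra, Kit and Emr1, which were lowest in co-culture, and for Csf3r and Lyz2, which were highest there. Csf1r also had a TGF-β mean between the others, though all of its groups overlapped, and Csf2rb and Csf2rb2 had their lowest mean with TGF-β. The comparisons with monoculture share its libraries, so a like direction in both is no independent observation. Groups did not overlap for 6 of the 8 in co-culture against monoculture (45% of all tested genes), 3 of 8 with TGF-β against monoculture (16.9%) and 4 of 8 in co-culture against TGF-β (41%). Kit, whose direction in co-culture the filter fixed, is among the 6 and the 4.

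Per kilobase of merged exons, the order of the levels was the same in all 3 groups. In monoculture Lyz2 stood at 459735 ± 44870 normalized counts per kilobase (mean ± SD, n = 3), followed by Emr1 at 27503 ± 3431, Csf1r at 14331 ± 851, Csf2ra at 4921 ± 227, Csf2rb2 at 2696 ± 39.1, Csf2rb at 1598 ± 16.9, Csf3r at 140.4 ± 15.6, Kit at 16.3 ± 6.05 and Flt3, listed at 0 in 1 library, at up to 0.373. In co-culture the neighbors Emr1 (17056.5 ± 2012) and Csf1r (14951 ± 1206) stood closer, with library ranges that overlapped, 15823 to 19378 and 13844 to 16235, as did Csf2ra (2853 ± 88.8) and Csf2rb2 (2512 ± 254), whose lowest and highest libraries, 2752 and 2749, almost met. Csf2rb2 and Csf2rb (2219.5 ± 57.1) overlapped in co-culture. With the longest transcript in place of merged exons Csf1r stood above Emr1, and Csf2rb above Csf2rb2, in co-culture.

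For the genes that moved together the RefSeq promoter table (GRCm38.p6) holds Csf3r and Lyz2, which rose in co-culture, and Csf2ra and Kit, which fell. The 250 bases before each start are printed 5′ to 3′ on the gene's strand so that the windows of risen and fallen genes can be read side by side. Capitals mark GAGGAA or its complement TTCCTC, a sequence that PU.1, the ETS factor of the myeloid lineage, can bind. They also mark CAGAC or its complement GTCTG, the box bound by SMAD proteins, the transducers of TGF-β.
Csf3r, chr4:126024409-126024658, plus strand: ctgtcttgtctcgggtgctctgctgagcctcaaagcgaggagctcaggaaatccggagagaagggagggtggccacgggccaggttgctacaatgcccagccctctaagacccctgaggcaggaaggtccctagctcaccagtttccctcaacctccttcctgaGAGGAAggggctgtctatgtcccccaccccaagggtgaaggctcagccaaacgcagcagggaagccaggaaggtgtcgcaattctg
Lyz2, chr10:117282273-117282522, minus strand: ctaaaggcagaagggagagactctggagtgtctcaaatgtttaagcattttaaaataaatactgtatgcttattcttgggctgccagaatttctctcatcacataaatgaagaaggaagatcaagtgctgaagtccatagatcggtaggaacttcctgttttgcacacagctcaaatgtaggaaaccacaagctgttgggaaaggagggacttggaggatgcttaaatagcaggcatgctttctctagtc
Csf2ra, chr19:61228419-61228668, minus strand: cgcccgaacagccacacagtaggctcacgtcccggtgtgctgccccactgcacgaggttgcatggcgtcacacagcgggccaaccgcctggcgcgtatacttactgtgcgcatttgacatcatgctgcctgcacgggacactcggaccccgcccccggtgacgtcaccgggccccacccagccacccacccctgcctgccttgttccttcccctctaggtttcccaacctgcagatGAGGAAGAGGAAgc
Kit, chr5:75574737-75574986, plus strand: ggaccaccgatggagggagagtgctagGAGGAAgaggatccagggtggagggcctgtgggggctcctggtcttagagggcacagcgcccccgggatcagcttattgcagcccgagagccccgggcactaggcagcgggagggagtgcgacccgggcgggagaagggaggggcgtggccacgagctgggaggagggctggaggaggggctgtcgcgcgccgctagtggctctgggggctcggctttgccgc
GAGGAA or its complement occurred once in the Csf3r window, 2 times back to back in that of Csf2ra and once in that of Kit. The Lyz2 window held no such match, and other forms of a PU.1 site were not searched in any window. The SMAD box occurred in none of these 4. Among 32851 windows of that length, 23.3% hold GAGGAA and 42.2% the SMAD box on either strand. A match of letters is no binding site, and the windows do not separate the genes that rose from those that fell. Of the other genes Flt3 and Csf2rb2 also had a promoter window, making 6 of 9. The SMAD box occurred once in each of these windows. GAGGAA or its complement occurred once in that of Csf2rb2 and 0 times in that of Flt3.

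By position in mm10 the genes are Csf1r (ENSMUSG00000024621, chromosome 18, 61100598 to 61132149, plus strand), Csf2ra (ENSMUSG00000059326, chromosome 19, 61223957 to 61228429, minus), Csf2rb (ENSMUSG00000071713, chromosome 15, 78325752 to 78353847, plus) and Csf2rb2 (ENSMUSG00000071714, chromosome 15, 78282507 to 78305721, minus). Csf3r (ENSMUSG00000028859) lies on chromosome 4 from 126024550 to 126044440 on the plus strand, Kit (ENSMUSG00000005672) on chromosome 5 from 75574916 to 75656722 on the plus strand, and Flt3 (ENSMUSG00000042817) on chromosome 5 from 147330741 to 147400489 on the minus strand. Emr1 (ENSMUSG00000004730) lies on chromosome 17 from 57358691 to 57483527 on the plus strand and Lyz2 (ENSMUSG00000069516) on chromosome 10 from 117277331 to 117282321 on the minus strand. All 9 are protein-coding genes, and a count is of the gene as a whole. Csf1r overlaps the gene Hmgxb3 on the opposite strand by 873 bases, and whether counting used strand is not stated.

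Genes downstream of the M-CSF receptor moved in both directions in co-culture. Of 23 listed signaling genes 6 rose and 5 fell against monoculture (median log2 fold change 0.02, against 0.03 for all tested genes, of which 15.9% rose and 15% fell). The adaptor Dok2, which restrains kinase signaling, fell to 4676 ± 513 normalized counts in co-culture, against 12845 ± 794 in monoculture (n = 3 each; log2 fold change -1.46 ± 0.09, adjusted p = 2.55e-08). The tyrosine kinase Src fell by 1.90 ± 0.18 (adjusted p = 2.06e-06). The Src-family kinase Lyn rose by 0.85 ± 0.09 (adjusted p = 6.86e-06), and Inpp5d, the lipid phosphatase SHIP1 that limits signaling by PI3 kinase, by 0.83 ± 0.09 (adjusted p = 8.03e-06). With TGF-β against monoculture 3 fell and 0 rose, where 2.52% of all tested genes were called in either direction. The 3 were Dok2 (-0.54 ± 0.09, adjusted p = 0.00544), Src (-0.94 ± 0.18, adjusted p = 0.0133) and the PI3 kinase subunit Pik3cb (-0.36 ± 0.08, adjusted p = 0.0339). The call of Pik3cb was lost under several settings (adjusted p 0.0506 to 0.146). That of Src was lost without monoculture 2 or 3 or TGF-β 1 or 2 (0.0529 to 0.0944). In co-culture against TGF-β 8 were higher and 4 lower, where 13.4% of all tested genes were higher and 11.9% lower. Of smallest p were Dok2 (-0.92 ± 0.09), Lyn (0.79 ± 0.09), Inpp5d (0.70 ± 0.09) and the adaptor Dok1 (-0.58 ± 0.10).

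The M-CSF receptor is cut from the cell surface by the protease ADAM17, and 5 genes around that step were listed. Of these 4 rose and 0 fell against monoculture, and likewise against TGF-β, but the direction of 1 of the 4, Timp3, was fixed by the filter. Over all tested genes 15.9% were higher in co-culture against monoculture and 13.4% against TGF-β. With TGF-β against monoculture limma, edgeR and DESeq2 each called 0 of the 5, with 0 at an unadjusted p under 0.05. Adam17 itself did not pass (0.00 ± 0.09, with 20985 normalized counts in co-culture and 21067 in monoculture). Rhbdf2, which encodes iRhom2, the protein that brings ADAM17 to the surface in myeloid cells, rose by 0.80 ± 0.10 (adjusted p = 1.85e-05), its relative Rhbdf1 by 1.44 ± 0.20 and the related protease Adam10 by 0.55 ± 0.10 (adjusted p = 4.81e-04). Timp3, an ADAM17 inhibitor that fibroblasts express strongly, had 143.4, 144.6 and 237.2 in co-culture, against 1.62, 0 and 1.55 in monoculture, beside the fibroblast sums of the same libraries. Timp3 reached the level for testing only through the co-culture libraries.

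Among 8 transcription factors that act at the Csf1r and Lyz2 loci, 4 rose and 1 fell in co-culture against monoculture. The median log2 fold change was 0.14, against 0.03 for all tested genes, of which 15.9% rose and 15% fell. Cebpa, the myeloid C/EBP factor, rose by 0.67 ± 0.11 (adjusted p = 2.12e-04), Irf8 by 0.27 ± 0.07 (adjusted p = 0.0120) and Cebpb by 0.32 ± 0.11 (adjusted p = 0.0331), of which Irf8 lost its call without co-culture 1 (adjusted p = 0.0584) and Cebpb with no filter (0.0537) or without monoculture 1 or 3, co-culture 3 or TGF-β 1 (0.0508 to 0.166). Ets2, an ETS factor that acts with M-CSF signaling, fell by 0.56 ± 0.13 (adjusted p = 0.00550). With TGF-β against monoculture limma, edgeR and DESeq2 each called 0, with 1 at an unadjusted p under 0.05. There limma called 2.52% of all tested genes. Against TGF-β 3 were higher in co-culture, Cebpa (0.58 ± 0.11), Irf8 (0.35 ± 0.07) and Cebpb (0.36 ± 0.11), with 13.4% of all tested genes higher. The call of Cebpb was lost without co-culture 3 or TGF-β 1 or 2 (adjusted p 0.0560 to 0.107).

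Of 7 other macrophage antigens, the sort antigens among them, 2 rose and 1 fell in co-culture against monoculture. The median log2 fold change was 0.04, against 0.03 for all tested genes, of which 15.9% rose and 15% fell. Mertk, the receptor for apoptotic cells, rose by 2.37 ± 0.11 (adjusted p = 1.91e-09), and Mpeg1, the pore-forming macrophage protein, by 0.46 ± 0.11 (adjusted p = 0.00512). Cd14, the endotoxin co-receptor, fell by 1.11 ± 0.18 (adjusted p = 7.09e-04). With limma 1 of the 7 was called for TGF-β against monoculture, where 2.52% of all tested genes were called. This was Mertk (0.62 ± 0.11, adjusted p = 0.00777), a call lost with scaling to the library total (0.0640) and without TGF-β 1 (0.0507). In co-culture against TGF-β 1 was higher, Mertk (1.74 ± 0.11), and 1 lower, Cd14 (-0.76 ± 0.18), against 13.4% and 11.9% of all tested genes. Itgam and Fcgr1 did not pass the limma test in any comparison. Itgam was called lower with TGF-β against monoculture by DESeq2 (-0.35, adjusted p = 0.00557) and with scaling to the library total (0.0239), which also called it higher in co-culture against TGF-β (0.0144). Fcgr1 was called higher in co-culture against TGF-β by edgeR (0.30, adjusted p = 0.0480) and DESeq2 (0.0391), with scaling to the library total (0.0265), and without monoculture 2 (0.0446) or TGF-β 2 (0.0339).

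**Figure D5:**
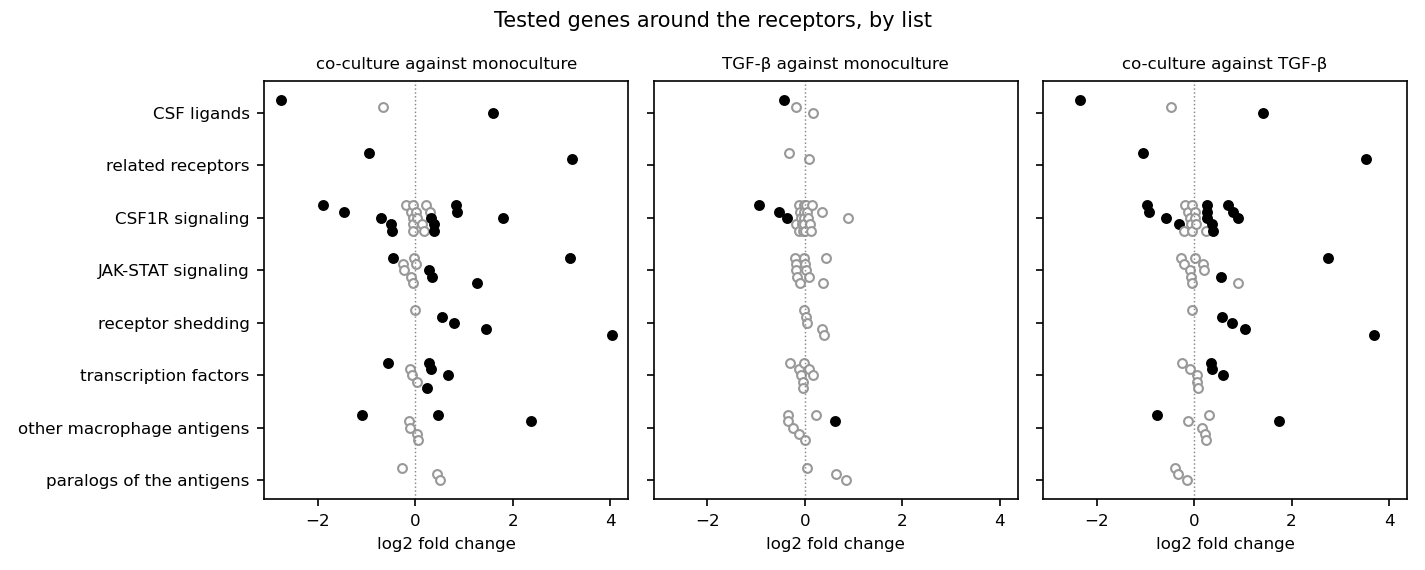
Log2 fold changes (horizontal axes) of the 62 tested genes of 8 lists around the receptors, with 1 panel for each of the 3 comparisons; points are genes, filled where adjusted p was under 0.05. Of the 62, 22 rose and 10 fell in the first comparison, 1 and 4 in the second, and 20 and 7 in the third. Over all tested genes 30.8%, 2.52% and 25.3% were called in these comparisons. Pdgfrb and Timp3 reached the level for testing only through the co-culture libraries, which fixed their direction.

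The genes whose levels ran most like each of the 8 tested genes over the 9 libraries were found by Pearson correlation of log2 values among 10228 genes; group differences and scaling are common to all such points, and no test was made. Kit ran closest to the sialyltransferase gene St3gal6 (r = 0.993), the interferon regulatory factor gene Irf7 (0.987) and the serine synthesis gene Phgdh (0.985), and Csf2ra to Mkl1 (0.996), Zswim4 (0.996) and the regulatory factor gene Irf5 (0.994). Emr1 ran closest to Tm9sf4 (0.987), Dock2 (0.982) and Aplp2 (0.980), and Csf2rb to Ppp1r9b (0.984), Tmem127 (0.984) and Ap1b1 (0.983). Csf3r ran with Slc26a11 (0.976), Bco2 (0.966) and Myo5a (0.964), and Lyz2 with Abcd2 (0.967), Tmem176b (0.953) and Arhgap15 (0.949). For Csf2rb2 the closest were Mapk7 (0.959), Crat (0.944) and Rab11fip5 (0.943), and for Csf1r Gpam (0.898), Ift140 (0.876) and C2cd2 (0.870). Among the genes themselves Csf2ra and Kit were the closest pair (r = 0.905), followed by Csf2ra and Emr1 (0.858), and Csf3r and Kit ran most opposite (-0.846).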

How the data were processed

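For every gene and library the deposited file holds a signal value. Tools named in the submitters' processing notes are STAR 2.7.3, bcl2fastq 2.20, R 3.6.1 and DESeq2 1.24.0, and the build is mm10; their roles, the counting program, its use of strand and the annotation are not given in the sources used here. Per the labels' protocols, 10 ng of RNA went into each library, made with a SMART-Seq kit that keeps strand. The deposited values were whole multiples of 1 step per library (100% within 0.05 of a whole number), that is read counts divided by a size factor, and reads were recovered from them.

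Genes that reached 10 normalized counts in 3 or more libraries were tested with limma 3.58.1 (R 4.3.3, trend and robust empirical Bayes) on log2(value + 10), with all 9 libraries in 1 fit and the group as the only factor, after a check on simulated data. Calls are at Benjamini-Hochberg adjusted p under 0.05 over all tested genes. A fold change on this scale understates that of low genes. edgeR 4.0.16 and DESeq2 1.42.0 on recovered reads, other pseudocounts, filters and scalings, a replicate block and leaving out each library were alternatives. Intervals on reads cover counting error only.

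Genes named were the 9 chosen by symbol, all listed ligands, related receptors, antigen paralogs and sort antigens, up to 4 called genes of smallest p per other list and comparison, and the 3 genes of closest pattern with a mean of at least 100. Marker genes, Adam17 and Hmgxb3 were named after their values were seen. The genes and lists were chosen with earlier results of these data known. Of 69 listed genes 65 were in the table. Positions and lengths are from GENCODE M21 (mm10), in which 24335 of 24607 identifiers were found; promoter sequences are from RefSeq (GRCm38.p6). Marker lists of neutrophils, mast cells and progenitors, dendritic cells and fibroblasts are given in the report, and those of sensory neurons, endothelium and lymphocytes in the closing section; of the glial markers only Ngfr and Sox10 are given, and the rest of that list is not reported here.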

Additional observations from a re-analysis of the deposited data

How the results depend on the processing

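The calls in co-culture against monoculture (6 of 8 genes) were made for the same genes in all settings that tested them; with a value of at least 10 required in all 9 libraries Kit was not tested. Log2 fold changes there ranged from 0.458 to 0.507 for Csf2rb, 1.02 to 1.36 for Csf3r, 0.498 to 0.744 for Lyz2, -0.824 to -0.751 for Csf2ra, -0.784 to -0.602 for Emr1 and -6.27 to -1.87 for Kit, whose fold depends on the added count (-5.58 with 1, -1.87 with 50, -6.19 with edgeR, -6.27 with DESeq2).

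The number of genes called with TGF-β against monoculture was 907 with DESeq2, in place of 412, and 165 to 935 when single libraries were left out (268 and 249 without monoculture 1 and 2, 165 and 248 without TGF-β 1 and 2, 935 without TGF-β 3). Of the 8 genes DESeq2 called 3 (Lyz2, Csf2rb, Emr1), the fit of only the 6 libraries compared called 1 (Lyz2), and leaving out single libraries gave 0 to 4, with 4 without TGF-β 3 (Csf2ra, Csf2rb, Csf2rb2, Lyz2), 1 without monoculture 3 (Emr1) and 1 each without co-culture 1 or 3 (Lyz2). In co-culture against TGF-β the count of 4 became 2 with at least 10 required in all libraries, where Kit was not tested and Csf3r had an adjusted p of 0.0518; leaving out single libraries gave 2669 (without co-culture 2) to 4601 genes called over the whole table, in place of 4128, and 2735 without co-culture 1. The Csf2rb2 share differed by -0.638 to 0.714 percentage points (-0.00275 without monoculture 2) with TGF-β against monoculture when single libraries were left out, so its sign is not settled. Per kilobase of the longest transcript Csf1r stood at 17602, Csf2ra at 6205, Csf2rb at 2374 and Kit at 27.8 normalized counts in monoculture, with the order of the genes kept there.

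Same-numbered libraries did not clearly deviate together: 3 of 9 correlations were over 0.1. Their range was -0.147 to 0.372, against -0.351 to 0.249 for libraries of unlike number. The best match had the same number in 6 of 18 settings. The numbers were not taken to pair the libraries, but whether they do is not settled. With the replicate number as a block 6 of the 8 genes were called in co-culture against monoculture (4926 over the whole table), 0 with TGF-β against monoculture (397) and 5 in co-culture against TGF-β, with Emr1 added (3956). Scaling to the library total moved the median of all genes by at most 0.0822 on the log2 scale.

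Counts of called genes in the lists moved by more than 1.5 times as follows. Of the transcription factors 3 in place of 5 were called in co-culture against monoculture with no filter and without monoculture 1 or 3 or co-culture 1 or 3. Of the JAK-STAT genes 3 in place of 5 were called there without monoculture 2 or 3 or co-culture 2, and 2 without co-culture 1. Kitl, the 1 ligand called with TGF-β against monoculture, was lost as the report gives; in the same comparison DESeq2 called 5 in place of 3 M-CSF signaling genes and 2 in place of 1 other antigens, M-CSF signaling had 1 call without monoculture 2, TGF-β 1 or TGF-β 2, and the other antigens 0 without TGF-β 1. In co-culture against TGF-β 5 in place of 2 other antigens were called with scaling to the library total, 7 in place of 12 M-CSF signaling genes without co-culture 2, and 1 in place of 0 antigen paralogs without TGF-β 2. Pdgfrb was not tested where fewer than 3 libraries, or not all, reached 10. Flt3, Il34 and Csf2 cannot be compared at this depth.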

Other observations

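Markers of further cell types differed in level between the groups. Sensory neuron markers (13 of 14 in the table, 4 tested) summed to 597 to 841.8 in co-culture, 8079 to 10745 over TGF-β libraries and 8757 to 10042 over those of monoculture, with 1 called higher and 1 lower in co-culture against monoculture (15.9% and 15% of all tested genes). Most of this sum was Uchl1, with 431.3 to 562.1 in co-culture, 8049 to 10703 over TGF-β libraries and 8659 to 9986 over those of monoculture. Tubb3 ran the other way, with 87.5 to 101.7 in co-culture, 6.56 to 13.6 over TGF-β libraries and 8.06 to 55.2 over those of monoculture, and so did Nefh, with 48.5 to 67.8 in co-culture, 12.8 to 24.0 over TGF-β libraries and 22.7 to 43.4 over those of monoculture. Endothelial markers (6 of 7 in the table, 3 tested) summed to 4254 to 4995.5 in co-culture, 6330.5 to 7347 over TGF-β libraries and 7993.5 to 8437.5 over those of monoculture, with 1 called higher and 2 lower in co-culture against monoculture (15.9% and 15% of all tested genes). Most of this sum was Vwf, with 2423 to 3286 in co-culture, 5076 to 6204 over TGF-β libraries and 5879 to 6170 over those of monoculture. Cdh5 ran the other way, with 200.8 to 256.5 in co-culture, 69.9 to 78.9 over TGF-β libraries and 82.1 to 111.7 over those of monoculture. So did Emcn, with 7.28 to 43.8 in co-culture and at most 1.15 elsewhere. The 1 lymphocyte marker in the table had at most 9.70 normalized counts in any library. The part of these cells in the levels of the receptors was not tested.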
